A study of Mus musculus with 9 samples.

Results

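The genes described here code for the transport machinery of the photoreceptor cilium, and were measured by RNA sequencing in mouse retinal cells. They were chosen by name from known roles, not by any measured value: 33 genes of 24772 entries in the deposited table, all 33 of which passed the filter on low counts that left 15841 genes. They comprised 11 subunits of intraflagellar transport (IFT) complex B, 3 of IFT complex A, 7 BBSome subunits, the small GTPase Arl6 with the assembly factors Bbs10 and Bbs12, 5 proteins of the connecting cilium, the pair Arl3 and Rp2 that releases lipidated cargo, and the kinesins Kif3a and Kif17. Per the labels, the cells were primary retinal ganglion cells collected by flow cytometry, in 3 groups of 3 libraries. Ctrl cells came from wild-type mice with an intact optic nerve. ONC cells came from wild-type mice 3 days after optic nerve crush, an injury to the axons of retinal ganglion cells. CKO cells came from mice with a conditional knockout of the zinc transporter ZnT3 in amacrine cells, also 3 days after crush. Knockout mice without crush were not analysed here, so every CKO comparison with Ctrl joins the knockout and the crush. The labels name no Cre line, no age or sex, and no number of animals per library, so the p-values reflect spread among these libraries alone, and that spread may be technical.

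A rod or cone photoreceptor carries its light-sensing membranes on an outer segment, which is a modified cilium joined to the cell body by a narrow connecting cilium. Proteins made in the cell body reach the outer segment through this bridge, helped by IFT trains that kinesin motors carry outward and dynein returns, while the BBSome, recruited to membranes by Arl6, removes membrane proteins that do not belong there. Many of these genes are known from inherited retinal degeneration or from Bardet-Biedl syndrome, and most are also used by the primary cilia of other cells.

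Total counts ranged from 14166996 to 25571715 per library, and the median count of the 33 genes ranged from 951 to 1894. The label of the sort was not matched by the markers: 11 ganglion cell markers summed to between 43.6 and 164 CPM (counts scaled to library size), whereas 15 rod markers made up 8.53% to 10.4% of all counts. Rbpms, a defining ganglion cell marker, stood between 1.15 and 5.17 CPM. Markers of motile cilia were low, with 28.6 to 40.7 CPM over 5 genes. The ONC columns are numbered 3, 5 and 6 in the file. Columns 3 and 6 correlated with each other at 0.992 (Pearson's r of log2 CPM across 15841 genes, which are not independent replicates), above the 0.957 to 0.965 of replicates in the other groups, and column 5 correlated with them at 0.933 and 0.937. Columns 3 and 6 still differed by more than counting error, with a median chi-square of 1.46 per gene where counting error alone gives 0.455, and 5.23 to 6.90 for replicates elsewhere. The chi-square does not show whether columns 3 and 6 came from separate samples or were repeat libraries of the same sample. Their origin was not tested. Columns 3 and 6 were kept as separate libraries, so the ONC p-values count them as separate replicates except where they are summed. For the genes called after crush, the values with column 5 left out or alone are given where they move the result most.

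Per transcript length, the 33 genes spanned a wide range within each complex. Levels between genes are given in FPKM (fragments scaled to transcript length and depth), which was used for Ctrl and CKO only. The median of the 33 genes in Ctrl was 55.0 FPKM, against 1.65 FPKM for the 22915 entries above 0, and 31 of the 33 lay above that value. Those entries include genes that failed the filter on low counts, which all 33 passed, so this is not a like-for-like baseline. Arl6, which brings the BBSome to membranes, was highest at 1111 ± 69.7 FPKM (SD, n = 3), followed by Rpgrip1, a scaffold of the connecting cilium, at 712 ± 31.0 FPKM and Arl3, the GTPase that unloads lipidated proteins, at 351 ± 20.9 FPKM. Bbs5, a BBSome subunit that binds membrane lipids, at 336 ± 23.1 FPKM, overlapped with Arl3 in Ctrl but lay above Ift43, the most abundant IFT-A subunit, at 290.2 ± 16.6 FPKM, in all Ctrl library pairs. Within IFT-B the levels ran from Ift52 at 15.8 to Ift81 at 217 FPKM, a 13.7-fold range. The BBSome, whose subunits assemble into a single particle, ran from Bbs1 at 5.35 to Bbs5 at 336 FPKM, a 62.8-fold range. These orders and ranges depend on the transcript length behind each FPKM value, taken as CPM by library totals over FPKM. In Ctrl this length was 0.668 kilobases for Ift172, 0.941 for Ift81, 1.58 for Ift52, 1.25 for Bbs5 and 5.44 for Bbs1. By mean CPM in Ctrl, Ift172 was lowest in IFT-B at 13.4, under Ift52 at 25.2. Bbs1 stood at 29.0 CPM and Bbs5 at 418 CPM. Kif17, the homodimeric kinesin, was lowest of all at 0.877 ± 0.382 FPKM, 26.7-fold below Kif3a, a motor subunit of heterotrimeric kinesin. Nphp4, a transition zone protein, was next lowest at 1.58 ± 0.501 FPKM. Of the 33 genes, Arl6, Rpgrip1, Arl3, Bbs5 and Ift43 held ranks 1 to 5 in both Ctrl and CKO.

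**Figure D1:**
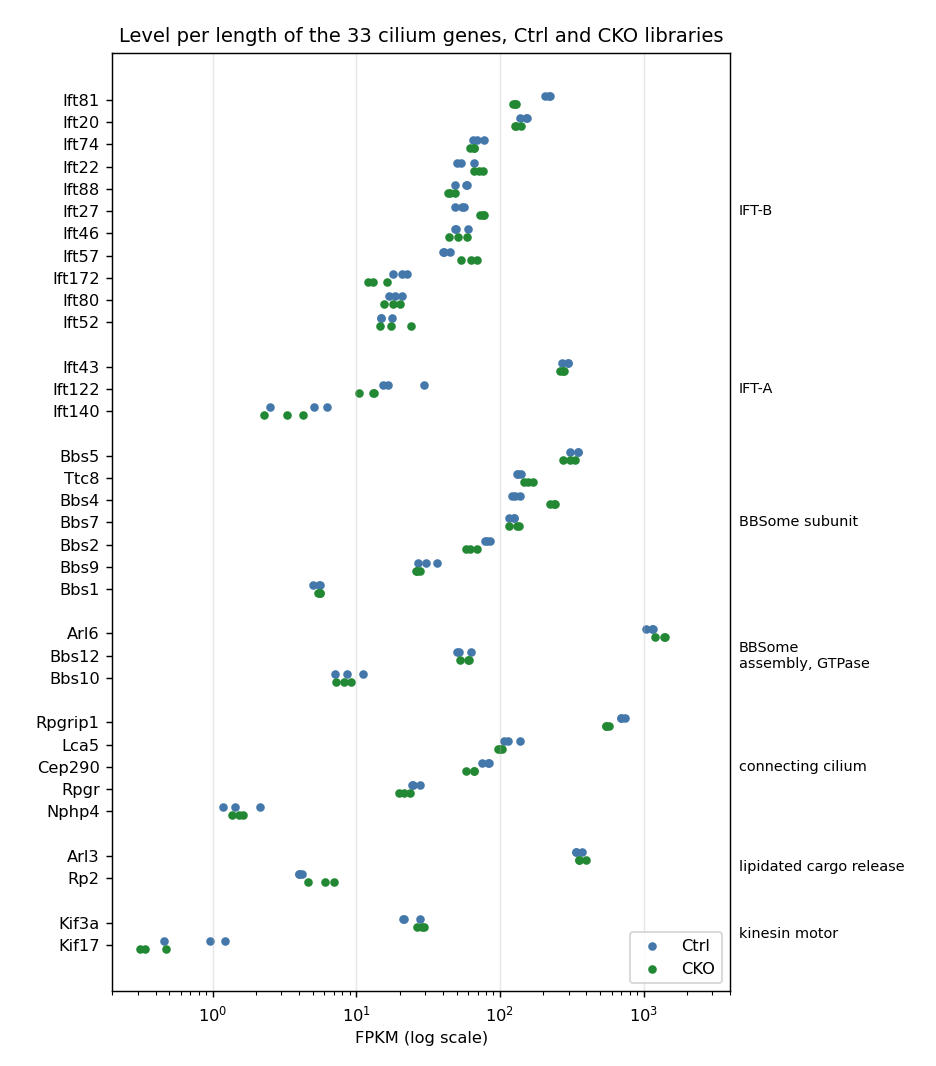
FPKM (log axis) of each of the 33 cilium genes in the 3 Ctrl and 3 CKO libraries, 1 point per library, grouped by complex. Each complex spans an order of magnitude or more, from Kif17 at a Ctrl mean of 0.877 to Arl6 at 1111, and Bbs4 is the gene whose CKO points (222 to 242) lie farthest above its Ctrl points (121 to 137).

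The promoters of ciliary genes are known for the X-box, the binding site of RFX transcription factors. RefSeq promoter windows (GRCm38.p6, 250 bases before to 50 after a start) matched 30 of the 33 genes. Its core, GTTGCC, read on both strands, lay in a window of 12 of the 30 genes (40.0%), against 14.1% of 27025 genes and 14.5% of the 11058 tested genes that had a window. An exact full palindrome (GTTGCC and then its reverse complement GGCAAC, 1 to 3 bases apart) lay in none of the 30 and in 0.189% of all genes. Looser forms of the palindrome were not counted in any set, so these shares cover exact matches only. In the Ift57 window a GTTGCC is followed, after 1 base, by GGTAAC, and in the Kif17 window by AGCAAC. Each differs from GGCAAC in 1 letter. The Crx-type site TAATCC, named for a photoreceptor homeodomain factor and read on both strands, lay in 2 of the 30 (6.67%), Bbs1 and Rpgrip1, against 8.14% of all genes. These are letter matches and not measured binding. The median GC content of the 35 windows was 61.0%, against 52.7% for all windows and 60.3% for those of tested genes. The windows of 4 genes called below are shown 5′ to 3′ on the gene's own strand, with the X-box core in either orientation in capitals. Ift57 had 2 matches, Ift27 and Kif3a 1 each and Bbs4 none; they lie at chr16:49699044-49699343 (plus strand), chr15:78174032-78174331 (minus strand), chr11:53567119-53567418 (plus strand) and chr9:59353459-59353758 (minus strand).
Ift57: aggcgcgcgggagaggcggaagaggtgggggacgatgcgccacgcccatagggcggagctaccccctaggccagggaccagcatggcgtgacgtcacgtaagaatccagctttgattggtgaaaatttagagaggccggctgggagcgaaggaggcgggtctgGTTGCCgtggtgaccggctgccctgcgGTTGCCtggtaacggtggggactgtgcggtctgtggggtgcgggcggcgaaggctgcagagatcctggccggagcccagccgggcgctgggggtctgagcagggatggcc
Ift27: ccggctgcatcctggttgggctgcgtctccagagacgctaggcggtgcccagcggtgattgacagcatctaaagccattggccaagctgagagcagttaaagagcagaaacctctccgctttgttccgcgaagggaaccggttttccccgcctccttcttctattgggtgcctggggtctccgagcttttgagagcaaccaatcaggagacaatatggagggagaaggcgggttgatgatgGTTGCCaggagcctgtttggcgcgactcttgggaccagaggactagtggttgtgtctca
Kif3a: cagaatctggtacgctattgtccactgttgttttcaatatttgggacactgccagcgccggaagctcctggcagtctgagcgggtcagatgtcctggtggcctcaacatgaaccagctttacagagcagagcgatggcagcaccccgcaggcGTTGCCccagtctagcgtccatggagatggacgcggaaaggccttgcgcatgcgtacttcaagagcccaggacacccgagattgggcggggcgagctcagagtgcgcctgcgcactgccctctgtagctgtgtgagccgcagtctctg
Bbs4: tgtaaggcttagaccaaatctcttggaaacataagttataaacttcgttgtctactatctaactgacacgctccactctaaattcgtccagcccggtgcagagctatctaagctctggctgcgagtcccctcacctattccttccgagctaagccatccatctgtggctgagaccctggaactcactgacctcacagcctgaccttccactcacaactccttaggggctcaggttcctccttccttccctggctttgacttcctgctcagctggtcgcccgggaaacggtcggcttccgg

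After crush in wild type, cilium genes passed the test about as often as all genes did, and in both directions. Of the 33, 4 were higher in ONC than in Ctrl (Ift22, Ift27, Nphp4 and Kif3a), 4 were lower (Ift81, Bbs5, Rpgr and Rp2) and 25 were not called by edgeR at an adjusted p under 0.05. Over all 15841 genes, 13.0% were called higher and 12.8% lower, so 8 of 33 was near the background of 25.8%. The median log2 fold change was 0.07 over the 33 genes and -0.04 over all genes, with a range of -0.93 to 1.01 among the 33. The ONC and Ctrl libraries did not overlap for 5 genes upward and 5 downward, where all genes gave 18.3% and 21.2%. The split of 4 higher and 4 lower became 5 and 3 with library totals as the scale (all genes 14.1% and 13.0%), 7 and 4 with DESeq2 (16.8% and 15.8%), and 10 and 1 after correction for GC content and length (15.6% and 8.14%). The summed level of the 33 genes, on the TMM scale, was 5904 to 6072 CPM in Ctrl and 5339 to 6051 CPM in ONC.

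Among the IFT-B subunits, Ift27 showed the call that held most often. Ift27 (ENSMUSG00000016637, chr15:78159463-78174107, minus strand, on GRCm38 like all gene positions here), a Rab-like GTPase subunit known for BBSome exit from cilia, had 47.0, 44.9 and 40.6 CPM in Ctrl replicates 1, 2 and 3 and 83.0, 63.7 and 72.9 CPM in ONC columns 3, 5 and 6. Every ONC library lay above every Ctrl library, and Ift27 was higher by a log2 fold change of 0.73 ± 0.14 (SE; edgeR adjusted p = 0.00465), which held in 17 of 18 alternative analyses and reached 0.0543 with ONC column 5 alone. Ift22, another Rab-like GTPase of complex B, had 40.2, 53.7 and 42.0 CPM in Ctrl and 67.6, 55.4 and 63.3 CPM in ONC. Its groups also did not overlap, with a log2 fold change of 0.46 ± 0.15 (edgeR adjusted p = 0.0448). With column 5 alone it was 0.32 (0.347), and after the correction 0.30 (0.133). The Ift22 call also ended without Ctrl replicate 1 (0.119) or 3 (0.109), ONC column 3 (0.122) or 6 (0.102), or CKO replicate 2 (0.0513). Ift81, a tubulin-binding core subunit, fell from 193, 206 and 211 CPM in Ctrl to 162, 153 and 165 CPM in ONC, again without overlap. Its log2 fold change was -0.34 ± 0.11 (edgeR adjusted p = 0.0374), but the adjusted p was 0.0897 to 0.155 when any 1 library other than ONC column 5 was left out, and after correction for GC content and length the value turned to 0.05. With column 5 alone it was -0.38 (edgeR adjusted p = 0.0729). Ift74, the partner of Ift81 in tubulin binding, was not called at a log2 fold change of -0.10 ± 0.12. The other 7 subunits of complex B were not called, with log2 fold changes from -0.21 for Ift80 to 0.26 for Ift52.

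None of the 3 IFT-A subunits, which serve return transport and membrane protein entry, was called by edgeR. Ift122, a core subunit, had an unadjusted p of 0.0317, with 22.7, 24.2 and 27.0 CPM in Ctrl and 32.4, 33.1 and 30.9 CPM in ONC. Its groups did not overlap, and the log2 fold change was 0.38 ± 0.16 (edgeR adjusted p = 0.0914). Ift43 gave a log2 fold change of -0.28 ± 0.13 and Ift140 of 0.42 ± 0.42, both with overlapping groups.

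Of the 7 BBSome subunits, Bbs5 alone was called, and it was lower. Bbs5 (ENSMUSG00000063145, chr2:69647171-69667571, plus strand) had 384, 429 and 442 CPM in Ctrl replicates 1, 2 and 3 and 150.2, 365 and 144 CPM in ONC columns 3, 5 and 6. All ONC libraries were below all Ctrl libraries, but column 5 lay close to Ctrl while columns 3 and 6 were far below it. The log2 fold change was -0.93 ± 0.29 (edgeR adjusted p = 0.0363). It was -1.45 without column 5 and -0.17 with column 5 alone, and leaving out any other 1 library ended the call, with adjusted p of 0.0575 to 0.141. After correction for GC content and length the Bbs5 value was -0.48 and not called (edgeR adjusted p = 0.0507). Bbs4 was not called at a log2 fold change of 0.33 ± 0.13 (edgeR adjusted p = 0.0763) and Bbs9 at 0.48 ± 0.18 (edgeR adjusted p = 0.0657); the remaining subunits lay between -0.12 for Bbs2 and 0.19 for Bbs1. Arl6 had 1032, 1141 and 1169 CPM in Ctrl and 508, 1154 and 498 CPM in ONC. Columns 3 and 6 were thus under every Ctrl library and column 5 was inside the Ctrl range, and its log2 fold change of -0.63 ± 0.26 was not called (edgeR adjusted p = 0.0979). Arl6 made up 17.5% to 19.3% of the summed CPM of the 33 genes in Ctrl, 9.27% and 9.32% in ONC columns 3 and 6, and 19.1% in column 5. The assembly factors Bbs10 and Bbs12 were not called, at log2 fold changes of -0.11 and -0.13.

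At the connecting cilium, Rpgr fell and Nphp4 rose. Rpgr, a regulator of protein entry at the base of the outer segment, had 90.2, 77.3 and 83.8 CPM in Ctrl and 57.6, 67.2 and 61.3 CPM in ONC, with no overlap. Its log2 fold change was -0.43 ± 0.13 (edgeR adjusted p = 0.0306), the adjusted p was 0.0582 to 0.169 without any 1 library other than ONC column 5, and the fit corrected for GC content and length gave 0.0. With column 5 alone the Rpgr value was -0.29 (edgeR adjusted p = 0.314). Srpx shares 208 exonic bases with Rpgr on the same strand and stood at 6.57 CPM in Ctrl and 4.83 CPM in ONC. Nphp4 had 10.3, 4.34 and 6.84 CPM in Ctrl and 17.3, 9.57 and 16.5 CPM in ONC. Column 5 was below Ctrl replicate 1, so the groups overlapped. The log2 fold change was 1.01 ± 0.33 (edgeR adjusted p = 0.0419), and the call was kept without Ctrl replicate 1 or ONC column 5 but not without any other 1 library (0.0516 to 0.133). Nphp4 was at 0.43 with column 5 alone (edgeR adjusted p = 0.585) and at 0.54 after correction for GC content and length (edgeR adjusted p = 0.17), neither of them a call. Rpgrip1, which anchors Rpgr, had a log2 fold change of 0.13 ± 0.12, the transition zone protein Cep290 of -0.22 ± 0.11 and Lca5 (lebercilin) of 0.13 ± 0.12, and none was called.

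The cargo-release pair and the kinesins each held 1 called gene. Rp2, the GTPase-activating protein that switches Arl3 off, had 15.8, 17.6 and 17.2 CPM in Ctrl and 8.07, 13.4 and 7.0 CPM in ONC, with every ONC library below Ctrl. The log2 fold change was -0.83 ± 0.26 (edgeR adjusted p = 0.0338), -1.11 without ONC column 5 and -0.31 with column 5 alone. After correction for GC content and length it was -0.24 and not called (edgeR adjusted p = 0.418). Leaving out any library other than ONC column 5 or CKO replicate 3 raised the adjusted p of Rp2 to 0.0517 to 0.154. Arl3 was not called at 0.20 ± 0.12. For every 100 Arl3 counts there were 6.76 to 7.37 Rp2 counts in Ctrl, and 2.68, 5.62 and 2.49 in ONC columns 3, 5 and 6. Kif3a rose from 72.1, 61.5 and 64.0 CPM in Ctrl to 116, 79.2 and 121 CPM in ONC, without overlap. Its log2 fold change was 0.68 ± 0.17 (edgeR adjusted p = 0.0167) and 0.29 with column 5 alone, and the call ended without Ctrl replicate 2 (0.052) or 3 (0.0518) or ONC column 3 (0.0538) or 6 (0.0598). Kif17 lay between 0.745 and 2.81 CPM in these 6 libraries and was not called.

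**Figure D2:**
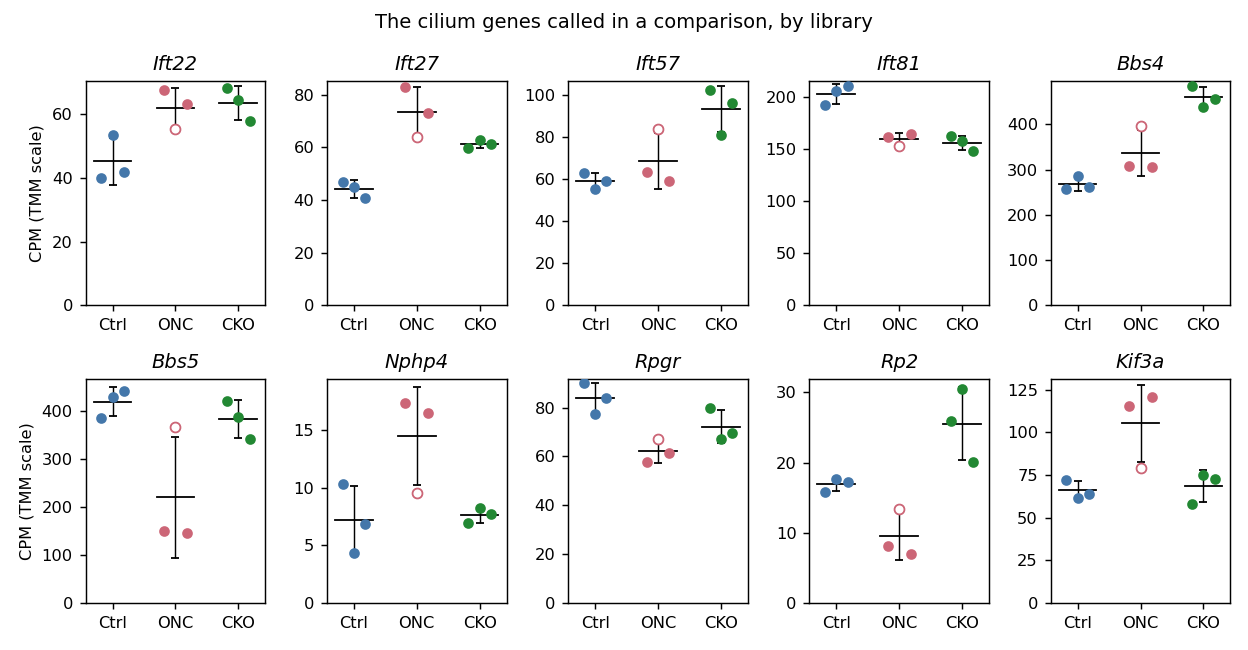
CPM on the TMM scale (axes from 0) of the 10 cilium genes called in at least 1 comparison, 1 point per library, with the mean (line) and SD (bar) of 3 libraries; the open point is ONC column 5. In Bbs5, Rp2, Kif3a, Nphp4 and Ift27 the open point lies between the other ONC libraries and the Ctrl mean. ONC and Ctrl points overlap in Nphp4 but not in Bbs5, Rp2, Kif3a or Ift27. In Ift27 the ONC points (63.7 to 83.0) lie above Ctrl (40.6 to 47.0).

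The ONC libraries differed from each other in the cilium genes in a gene-specific way. The median absolute log2 difference of column 5 from the mean of columns 3 and 6 was 0.36 over the 33 genes, against 0.09 between columns 3 and 6, and over all genes these were 0.53 and 0.14. The difference passed 0.5 for 10 of 33 genes (30.3%), where all genes gave 52.0%. Kif17 (1.75), Bbs5 (1.31), Arl6 (1.20), Bbs12 (1.07), Rp2 (0.82) and Ift80 (0.75) were higher in column 5, and Ift140 (-1.70), Nphp4 (-0.81), Bbs9 (-0.64) and Kif3a (-0.58) were lower, in log2 units. Without column 5, edgeR called 11 of the 33 higher and 8 lower in ONC, where all genes rose to 23.1% and 23.3%. With columns 3 and 6 summed to 1 library it called 1 higher and 0 lower (all genes 7.42% and 4.37%), and with column 5 alone, a single sample assumed to vary like the other groups, 2 and 0 (4.20% and 2.43%).

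GC content moved with these differences. Across the 33 genes, the difference from the Ctrl mean correlated with transcript GC content at r = 0.51 in ONC columns 3 and 6 and 0.32 in column 5 (Pearson's r over 33 genes of 1 library, which share its depth and preparation), and at -0.09 to -0.22 in the CKO libraries. Over 14207 genes r was 0.43, 0.39 and 0.10 in columns 3, 6 and 5. The 16 genes below the median GC content of 46.9% had a median difference of -0.24 in column 3, 0.04 in column 5 and -0.18 in column 6, and the 16 above it had 0.35, 0.15 and 0.26. Of the 4 genes called lower, Ift81, Bbs5, Rpgr and Rp2 had GC contents of 43.6%, 41.1%, 43.0% and 39.0%; of those called higher, Ift22, Ift27, Nphp4 and Kif3a had 51.6%, 54.2%, 59.5% and 48.1%. With exon length, r over the 33 genes was 0.23, 0.27 and -0.29 in ONC columns 3, 6 and 5. The part of GC content in the calls was not tested apart from length. The corrected fit removed both together, and in it 10 genes were higher and 1 lower. Of the 8 genes called without the correction, 2 were called with it, Ift27 at 0.44 (edgeR adjusted p = 0.0159) and Kif3a at 0.77 (edgeR adjusted p = 0.0116). None of the 4 called lower was among them, and the 1 lower gene was Ift43 at -0.39 (edgeR adjusted p = 0.0281).

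**Figure D3:**
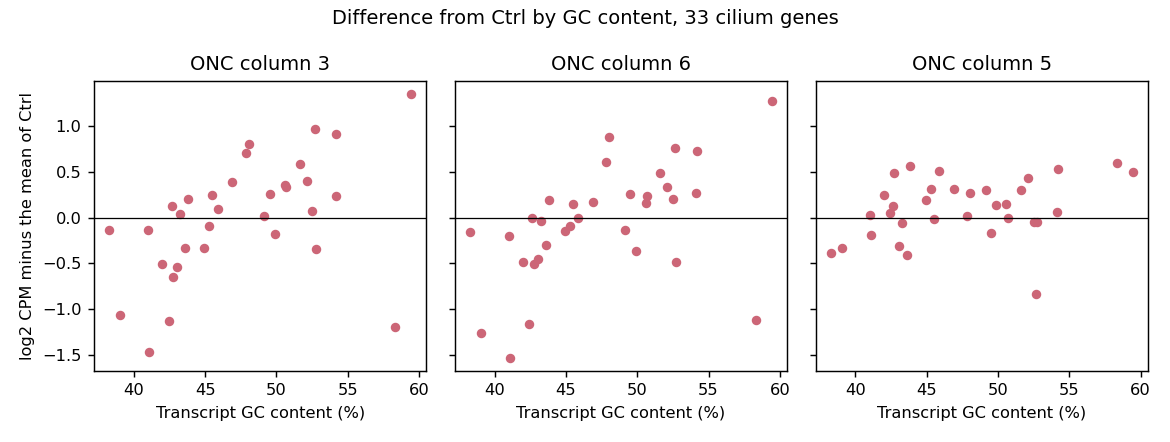
Difference of each of the 33 cilium genes from the Ctrl mean (log2 CPM) against its transcript GC content (percent), in ONC columns 3, 6 and 5, 1 point per gene. Genes of low GC content lie mostly below 0 in columns 3 and 6, where r was 0.51, and less so in column 5, where r was 0.32.

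Cell type markers moved with the groups as well. The 15 rod markers summed to 85330 to 88010 CPM in Ctrl, 94910 to 104100 in ONC and 101100 to 104400 in CKO. For every 100 rod marker counts there were 6.87 to 7.12 counts of the 33 cilium genes in Ctrl, 5.42 to 5.81 in ONC and 5.81 to 6.22 in CKO. The 10 Müller glia markers summed to 786 to 813 CPM in Ctrl, 1095 to 1623 in ONC and 1288 to 1398 in CKO, and the 10 amacrine markers to 434 to 518, 185 to 205 and 133 to 151 CPM. The 7 pigment epithelium markers summed to 344 to 523 CPM in Ctrl, 104 to 184 in ONC and 123 to 142 in CKO. Their part in the cilium results was not tested, and in such bulk samples fewer cells of a type and less RNA per cell cannot be told apart.

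Between the crushed groups, which differ by the knockout, Rp2 was the only cilium gene called. It was higher in CKO, 0 of the 33 genes were called lower by edgeR, and 32 were not called, where 0.587% of all genes were called higher and 0.278% lower (0.865% in all). Before adjustment, p was under 0.05 for 6 higher and 5 lower genes of the 33 (11 in all, where all genes gave 27.2%), and DESeq2 called 4 and 3 (7.50% and 6.78%). The median log2 fold change was -0.05, against -0.02 over all genes, and with library totals as the scale it was -0.15 against -0.13. CKO and ONC did not overlap for 3 genes upward and 7 downward, where all genes gave 13.6% and 12.6%. Rp2 had 26, 30.5 and 20.1 CPM in CKO replicates 1, 2 and 3, against 8.07, 13.4 and 7.0 CPM in ONC. Every CKO library was above every ONC library and also above every Ctrl library, and the log2 fold change was 1.43 ± 0.26 (edgeR adjusted p = 0.0378). The Rp2 call ended without any 1 library other than ONC column 5 (adjusted p 0.0712 to 0.209), and against column 5 alone the value was 0.92 (edgeR adjusted p = 0.31). After correction for GC content and length it was 1.05 (edgeR adjusted p = 0.0564). For every 100 Arl3 counts, CKO had 10.1, 12.9 and 8.43 Rp2 counts.

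Several other cilium genes had CKO and ONC libraries that did not overlap without passing the test. Arl6 had 1500.0, 1527 and 1301 CPM in CKO, above all 3 ONC libraries, at a log2 fold change of 1.0 ± 0.27 (edgeR adjusted p = 0.0645), and made up 21.7% to 24.4% of the summed CPM of the 33 genes. Bbs4 gave 0.45 ± 0.13 (0.0721), Kif3a -0.62 ± 0.17 (0.071), Rpgrip1 -0.42 ± 0.12 (0.0754) and Ift122 -0.50 ± 0.16 (0.0859), each with libraries that did not overlap (log2 fold change ± SE, edgeR adjusted p). Ift27, the clearest rise after crush in wild type, had 59.9, 62.8 and 61.3 CPM in CKO, all below the 3 ONC libraries and above the 3 Ctrl libraries, and was not called against ONC (-0.26 ± 0.13, edgeR adjusted p = 0.24). Nphp4 had the lowest log2 fold change of the 33, -0.92 ± 0.33 (edgeR adjusted p = 0.106). Without ONC column 5, edgeR called 8 of the 33 genes higher and 8 lower (all genes 18.6% and 18.1%); without any other 1 library it called none in either direction.

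Crushed knockout against intact wild type gave 2 cilium genes, both higher: the BBSome subunit Bbs4 and the IFT-B subunit Ift57. By edgeR 31 of the 33 were not called, and 0 were lower, where 4.32% of all genes were higher and 4.58% lower (8.89% in all), and p was under 0.05 before adjustment for 6 higher and 3 lower genes (9 in all, where all genes gave 23.9%). DESeq2 called 4 higher and 1 lower (7.46% and 7.06%), and a fit of Ctrl and CKO without ONC called 7 higher and 3 lower (10.5% and 8.98%). The groups did not overlap for 8 genes upward and 6 downward, where all genes gave 17.2% and 18.5%, and the median log2 fold change was -0.01 over both the 33 genes and all genes.

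Bbs4 (ENSMUSG00000025235, chr9:59321990-59353508, minus strand) had 258, 286 and 261 CPM in Ctrl replicates 1, 2 and 3 and 484, 439 and 456 CPM in CKO replicates 1, 2 and 3, with ONC at 309, 395 and 306 CPM in columns 3, 5 and 6. No library of 1 group overlapped with another group, with Ctrl lowest, ONC between and CKO highest. The log2 fold change from Ctrl to CKO was 0.78 ± 0.13 (edgeR adjusted p = 0.00498), a 1.72-fold rise that was called in all 20 alternative analyses of this comparison. Adpgk overlaps Bbs4 on the opposite strand by 194 exonic bases and stood at 9.38 CPM in Ctrl and 16.8 CPM in CKO (log2 fold change 0.84, edgeR adjusted p = 0.0298). Reads of the overlap cannot be told apart without strand, and Adpgk's level was far below that of Bbs4. Exons of other genes also overlap Rpgrip1 (1057 bases), Cep290 (881), Ift57 (225), Kif17 (74), Ift88 (67), Arl6 (55) and Bbs12 (32), so their counts carry the same uncertainty. Of the other BBSome subunits, Ttc8 was at a log2 fold change of 0.37 ± 0.14 and Bbs7 at 0.20 ± 0.11, both without overlap and not called, and the other 4 lay between -0.16 for Bbs2 and 0.09 for Bbs1. Together the 7 subunits summed to 1244 to 1350 CPM in Ctrl, 1480 to 1661 in CKO and 1075 to 1470 in ONC.

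Ift57, a peripheral complex B subunit whose exons share 225 bases with the antisense gene Gm15518, had 63.2, 55.2 and 59.0 CPM in Ctrl and 103, 81.4 and 96.5 CPM in CKO. All CKO libraries were above all Ctrl libraries, while ONC had 63.3, 84.0 and 59.2 CPM, with column 5 inside the CKO range and columns 3 and 6 outside it. The log2 fold change was 0.66 ± 0.16 (edgeR adjusted p = 0.0251), and the call ended without Ctrl replicate 1 (0.0549), 2 (0.0762) or 3 (0.0819) or CKO replicate 1 (0.101) or 3 (0.0833). Ift27, at 0.47 ± 0.14 (edgeR adjusted p = 0.0507), and Ift22, at 0.49 ± 0.15 (edgeR adjusted p = 0.0671), had no overlap and were not called. Both were called in ONC against Ctrl; the 2 comparisons share the Ctrl libraries. Ift81 was at -0.38 ± 0.11 (edgeR adjusted p = 0.0521), with 162, 158 and 149 CPM in CKO, all below Ctrl.

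For Ift81 the deposited FPKM showed a larger difference than its counts. Ift81 had 207, 223 and 219.9 FPKM in Ctrl replicates 1, 2 and 3 and 129, 124 and 127 FPKM in CKO, and on the log2(FPKM + 1) scale limma gave -0.77 (adjusted p = 0.000257). The ratio of CPM by library totals to FPKM, which is the transcript length in kilobases that the authors' values imply, was 0.932 to 0.948 in Ctrl and 1.13 to 1.21 in CKO. Among the 32 cilium genes with at least 1 FPKM and 50 counts on average, all but Kif17, the implied length of CKO differed from Ctrl by over 0.3 (log2) in 2, Ift122 (0.51) and Ift81 (0.33), a share of 6.25% against 7.16% of 11642 genes. Ift122 had an implied length of 0.899 kilobases in Ctrl replicate 3 and 1.46 to 1.49 in the other Ctrl replicates. The limma fit was chosen after the data were seen; over its 12604 genes, 9.58% were called higher and 10.5% lower in CKO. All cilium genes but Kif17, whose mean FPKM was under 1, were in this fit. Of these, 4 were called higher (Ift27, Ift57, Bbs4 and Arl6) and 5 lower (Ift81, Ift172, Bbs2, Rpgrip1 and Cep290).

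**Figure D4:**
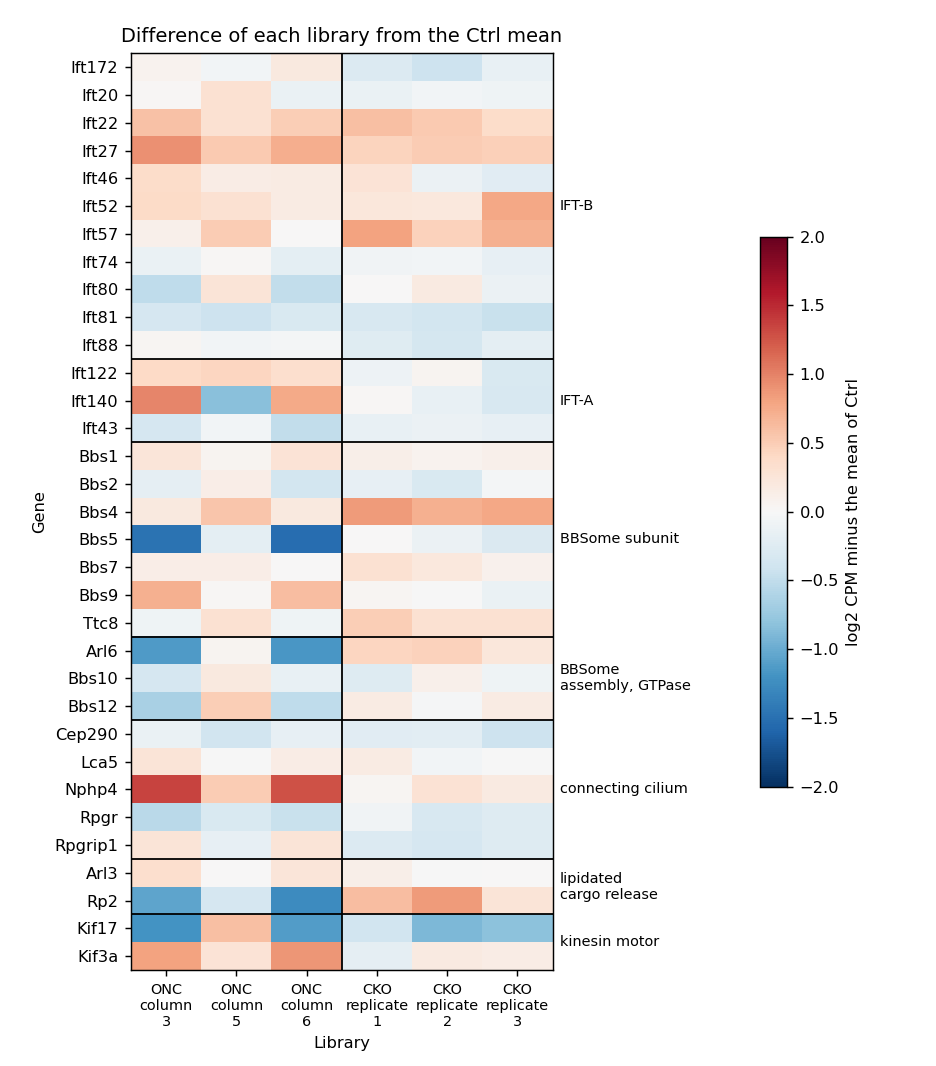
Difference of each ONC and CKO library from the Ctrl mean (log2 CPM, colour scale -2 to 2, red higher and blue lower) for the 33 cilium genes, grouped by complex. Ift27 and Ift22 are red in all 6 libraries and Ift81 is blue in all 6, Bbs4 is redder in the 3 CKO libraries than in the ONC columns, and Bbs5, Arl6 and Rp2 are dark blue in ONC columns 3 and 6 but pale in column 5.

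Beyond the 33, 72 other genes of the same machinery were tested, listed by role. In ONC against Ctrl, edgeR called 13 higher and 11 lower; with column 5 alone it called 3 and 2, and without column 5 27 and 20, against the shares of all genes given above for these fits. In CKO against Ctrl edgeR called 3 higher and 5 lower (all genes 4.32% and 4.58%). In CKO against ONC it called 0 of 72 in either direction (all genes 0.587% higher and 0.278% lower). Before adjustment 19 higher and 14 lower had an edgeR p under 0.05, where all genes gave 27.2% over both directions. The counts by DESeq2 in CKO against ONC were 8 and 11 (all genes 7.50% and 6.78%). Without ONC column 5, edgeR called 20 higher and 22 lower in CKO against ONC (all genes 18.6% and 18.1%).

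The other IFT and motor genes, 19 in number, included 2 called higher and 3 lower after crush, where all genes gave 13.0% and 12.8%. Tulp3, the adaptor by which IFT-A carries membrane receptors into cilia, had 124, 109 and 165 CPM in Ctrl, 42.4, 73.7 and 52.4 CPM in ONC and 53.7, 53.7 and 58.2 CPM in CKO. Every library of both crushed groups was below every Ctrl library, at log2 fold changes of -1.24 ± 0.21 in ONC (edgeR adjusted p = 0.00293) and -1.27 ± 0.21 in CKO (edgeR adjusted p = 0.00477), and Tulp3 was called in all 18 and all 20 alternatives. Hspb11, which codes for Ift25, the dimer partner of Ift27, had 66.9, 67.5 and 83.3 CPM in Ctrl and 26.6, 45.8 and 26.5 CPM in ONC. Hspb11 fell by a log2 value of 1.14 ± 0.21 (edgeR adjusted p = 0.00461), opposite to the rise of Ift27, and was called in 17 of 18 alternatives, the exception being column 5 alone (-0.64, 0.0621).

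Among 7 other genes of lipidated cargo, 3 were higher after crush and the other 4 were not called. Over all genes 13.0% were called higher and 12.8% lower after crush. The same shares stand beside the counts of each list below, and no list was tested as a whole. Unc119, the carrier from which Arl3 releases transducin, had 2830.0, 2879 and 2828 CPM in Ctrl, 4589, 4394 and 4235 CPM in ONC and 4308, 3973 and 4190.0 CPM in CKO. Both crushed groups lay above Ctrl, at 0.63 ± 0.09 in ONC (edgeR adjusted p = 0.00142) and 0.55 ± 0.09 in CKO (edgeR adjusted p = 0.00417). After correction for GC content and length the ONC value was 0.25 (edgeR adjusted p = 0.163). Of 9 genes of the photoreceptor axoneme and rootlet, 4 were higher and 1 lower after crush. The axonemal protein Rp1 fell in both crushed groups (-0.60 ± 0.09 and -0.45 ± 0.09) and Cdhr1, a cadherin at the site of disc formation, rose in both (0.54 ± 0.11 and 0.78 ± 0.11), with edgeR adjusted p of 0.00163 and 0.00842 for Rp1 and 0.00569 and 0.00238 for Cdhr1. After correction for GC content and length Rp1 was at -0.06 in ONC (edgeR adjusted p = 0.656) and -0.19 in CKO (edgeR adjusted p = 0.208), neither of them a call, while Cdhr1 was called in all 18 and all 20 alternatives. Tulp1, a photoreceptor transport protein, had 1408, 441 and 1239 CPM in ONC columns 3, 5 and 6 against 405, 359.5 and 399.7 CPM in Ctrl. It was higher in ONC by 1.41 ± 0.31 (edgeR adjusted p = 0.00935), but by 0.21 with column 5 alone (edgeR adjusted p = 0.329). Among 28 other connecting cilium and transition zone genes, 3 were higher and 5 lower after crush, among them the centrin Cetn3 at -1.17 ± 0.29 and the Rpgrip1 partner Spata7 at -0.70 ± 0.14 (edgeR adjusted p = 0.0135 and 0.00671). Cetn3 was called in 13 of 18 alternatives and was at -1.67 without column 5 and -0.44 with column 5 alone (edgeR adjusted p = 0.0897). Spata7 was called in 16 of 18, the exceptions being -0.20 after correction for GC content and length (edgeR adjusted p = 0.33) and -0.54 with column 5 alone (edgeR adjusted p = 0.109). Among 9 other BBSome-related genes, 1 was higher (Ccdc28b) and 2 lower (Bbip1 and Lztfl1), and Bbip1, itself a BBSome subunit, was at -0.61 ± 0.16 (edgeR adjusted p = 0.0183). Bbip1 was called in 9 of 18 alternatives and was at -0.21 with column 5 alone (edgeR adjusted p = 0.314). Ccdc28b and Lztfl1 were each called in 10 of 18, and after correction for GC content and length Ccdc28b was at 0.12 (edgeR adjusted p = 0.496) and the direction of Lztfl1 turned to 0.26 (edgeR adjusted p = 0.0979).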

How the data were processed

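The members and gene lists were chosen with earlier results of these data known. Per the labels, RNA from sorted cells was amplified as cDNA with a single-cell kit and made into libraries by tagmentation, a step that does not mark strand, although the labels call the libraries stranded. The submitters' processing notes list Trimmomatic 0.36 and the builds GRCm38 and mm10. Aligner, counter and annotation are not given in the sources used here. The deposited values, per the file headers, are an expected count and an FPKM value (normalized by the authors for length and depth) per gene and library. The ONC FPKM columns, 3 in number, could not be matched to samples and were not used. Symbols and GC content came from GENCODE M21 (21956 of 21970 Ensembl identifiers matched).

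Expected counts were rounded and fitted with edgeR 4.0.16 (R 4.3.3; filterByExpr, TMM, 1 quasi-likelihood model of 9 libraries, no covariate), and p-values were Benjamini-Hochberg adjusted over 15841 genes and called under 0.05. CPM of genes and list sums are on the TMM scale. Alternatives were DESeq2 1.42.0, other scalings and filters, a correction for GC content and length, 1 library left out, other uses of the ONC columns, a replicate block and, added after the data were seen, limma 3.58.1 on log2(FPKM + 1). Every called member is named; others are named as complex partners or extremes; list genes are named from those with the lowest p. Counting limits cover counting error only. Scripts were tested on simulated data. Figures used matplotlib.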

Additional observations from a re-analysis of the deposited data

How the results depend on the processing

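Counts of called cilium genes depended on the ONC libraries and on the tool. For ONC against Ctrl (4 higher, 4 lower, median 0.07), the higher count was 7 with DESeq2, 2 with only the groups compared, 10 after correction for GC content and length, 1 when columns 3 and 6 were summed and 2 for column 5 alone. The lower count was 2 without a filter, 0 with only the groups compared, 1 after the correction, and 0 with columns 3 and 6 summed or column 5 alone. The median became 0.12 without a filter, 0.25 after the correction, and 0.15 with the columns summed or column 5 alone. Leaving out 1 library gave 1 to 11 higher, 0 to 8 lower and medians of 0.10 to 0.16. For CKO against ONC (1 higher, 0 lower, median -0.05), DESeq2 gave 4 and 3, no filter gave 2 higher, and only the groups compared, the correction, the summed columns and column 5 alone gave 0 higher. The median was -0.15 with library totals, -0.16 after the correction and -0.11 with the summed columns. Leaving out 1 library gave 0 to 8 higher, 0 to 8 lower and medians of -0.12 to -0.05. For CKO against Ctrl (2 higher, 0 lower, median -0.01), DESeq2 gave 4 and 1, only the groups compared and column 5 alone each gave 7 and 3, the correction gave 4 higher, library totals and the stricter filter each gave 1 lower, and limma on FPKM gave 4 and 5. The median was -0.08 with library totals and with limma. Leaving out 1 library gave 1 to 7 higher, 0 to 3 lower and medians of -0.04 to 0.05. In each comparison the highest counts of that range came from leaving out ONC column 5. In ONC against Ctrl, 4 genes reversed: Ift74 (0.45), Ift81 (0.05) and Cep290 (0.52) after the correction, and Bbs12 (0.51) with column 5 alone; the causes were not tested. The calls themselves held less often: for the 8 genes called in ONC against Ctrl, 77 of 144 values under the alternatives were not called, for Rp2 in CKO against ONC 12 of 18, and for the 2 genes called in CKO against Ctrl 5 of 40. Ctrl and CKO share replicate numbers 1 to 3. The deviations of same-numbered libraries correlated at only 0.002, 0.015 and 0.008, and those of differently numbered libraries at -0.029 to 0.021. Ctrl replicate 1 correlated best with CKO replicate 3. No pairing was visible, but with 3 libraries per group these values cannot show whether the numbers pair the samples. With a replicate block the counts in CKO against Ctrl were 6 higher and 3 lower. No paired analysis was possible for the ONC comparisons because the ONC columns carry other numbers than Ctrl and CKO. Without a filter the median of all genes in ONC against Ctrl shifted to -0.20. Genes of few counts, such as Kif17 and Nphp4, are the least precise.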
